A study of Mus musculus with 4 samples.

Results

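The fibroblast growth factor (FGF) system was described as 63 probe sets of 32 genes, among 45037 tested probe sets of 18193 named genes. Members were all probe sets with a single gene symbol that names a numbered Fgf gene, a receptor (Fgfr1 to Fgfr4), the receptor-like gene Fgfrl1, an FGF binding protein (Fgfbp), a klotho co-receptor (Kl, Klb) or a docking protein (Frs2, Frs3). The rule reads gene symbols only. Of the genes the rule names, Frs2 had 0 probe sets under its symbol alone and was not analysed here. RNA came from whole mouse embryos at embryonic day 9.5 and was measured on 4 Affymetrix arrays. The Cop1-null group was 1 RNA pool of 6 embryos that lack Cop1. The control group was 1 RNA pool of 6 embryos, which the sample titles call wild-type and whose descriptions give as +/+ or +/-, so heterozygotes may be among them. No source used here gives the allele or the strain. Each pool was divided into 2 portions with 1 array each. Every p-value below therefore rests on the spread between portions of the same RNA and carries no replicate check of the genotype.

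FGFs are secreted signals that bind receptor tyrosine kinases together with heparan sulphate. The receptors pass the signal through docking proteins to the RAS-ERK and phosphoinositide 3-kinase cascades, and the ETV transcription factors and the Sprouty inhibitors are induced downstream. In the embryo, FGFs act from small signalling centres such as the isthmus between midbrain and hindbrain, the pharyngeal arches, the limb bud ridge and the tail bud. A smaller group of FGFs circulates as hormones and needs klotho proteins as co-receptors, and another group stays inside the cell. COP1 is a ubiquitin ligase that marks proteins, ETV factors among them, for degradation.

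Most of the FGF system read nearly alike in both pools. Of the 63 member probe sets, 3 rose and 3 fell, 9.52% in all, while 13.7% of all tested probe sets were called in this comparison (6.76% rose, 6.96% fell). A call needed a Benjamini-Hochberg adjusted p under 0.05 over all 45037 probe sets in limma and a fold of at least 1.5. The members' share of calls was thus no higher than that of the array as a whole. Probe sets of Fgf11, Fgf14 and Fgf15 rose, and probe sets of Fgf17, Fgf5 and Fgfrl1 fell. The median difference, null pool minus control pool, was 0.03 log2 units over the members and 0.01 over all probe sets. The median absolute difference was 0.12 over the members and 0.18 over all probe sets. By less than 0.3 log2 units differed 52 of the 63 members and 30277 of all 45037 probe sets. Of the members 34 lay among the dimmest 40% of all probe sets, where differences tended to be smaller. The values of the null portions lay wholly above or wholly below those of the control portions in 35 members (55.6%), against 65.3% of all probe sets. Of these members 21 were higher in the null portions (32.6% of all probe sets were) and 14 lower (32.7% of all).

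**Figure D1:**
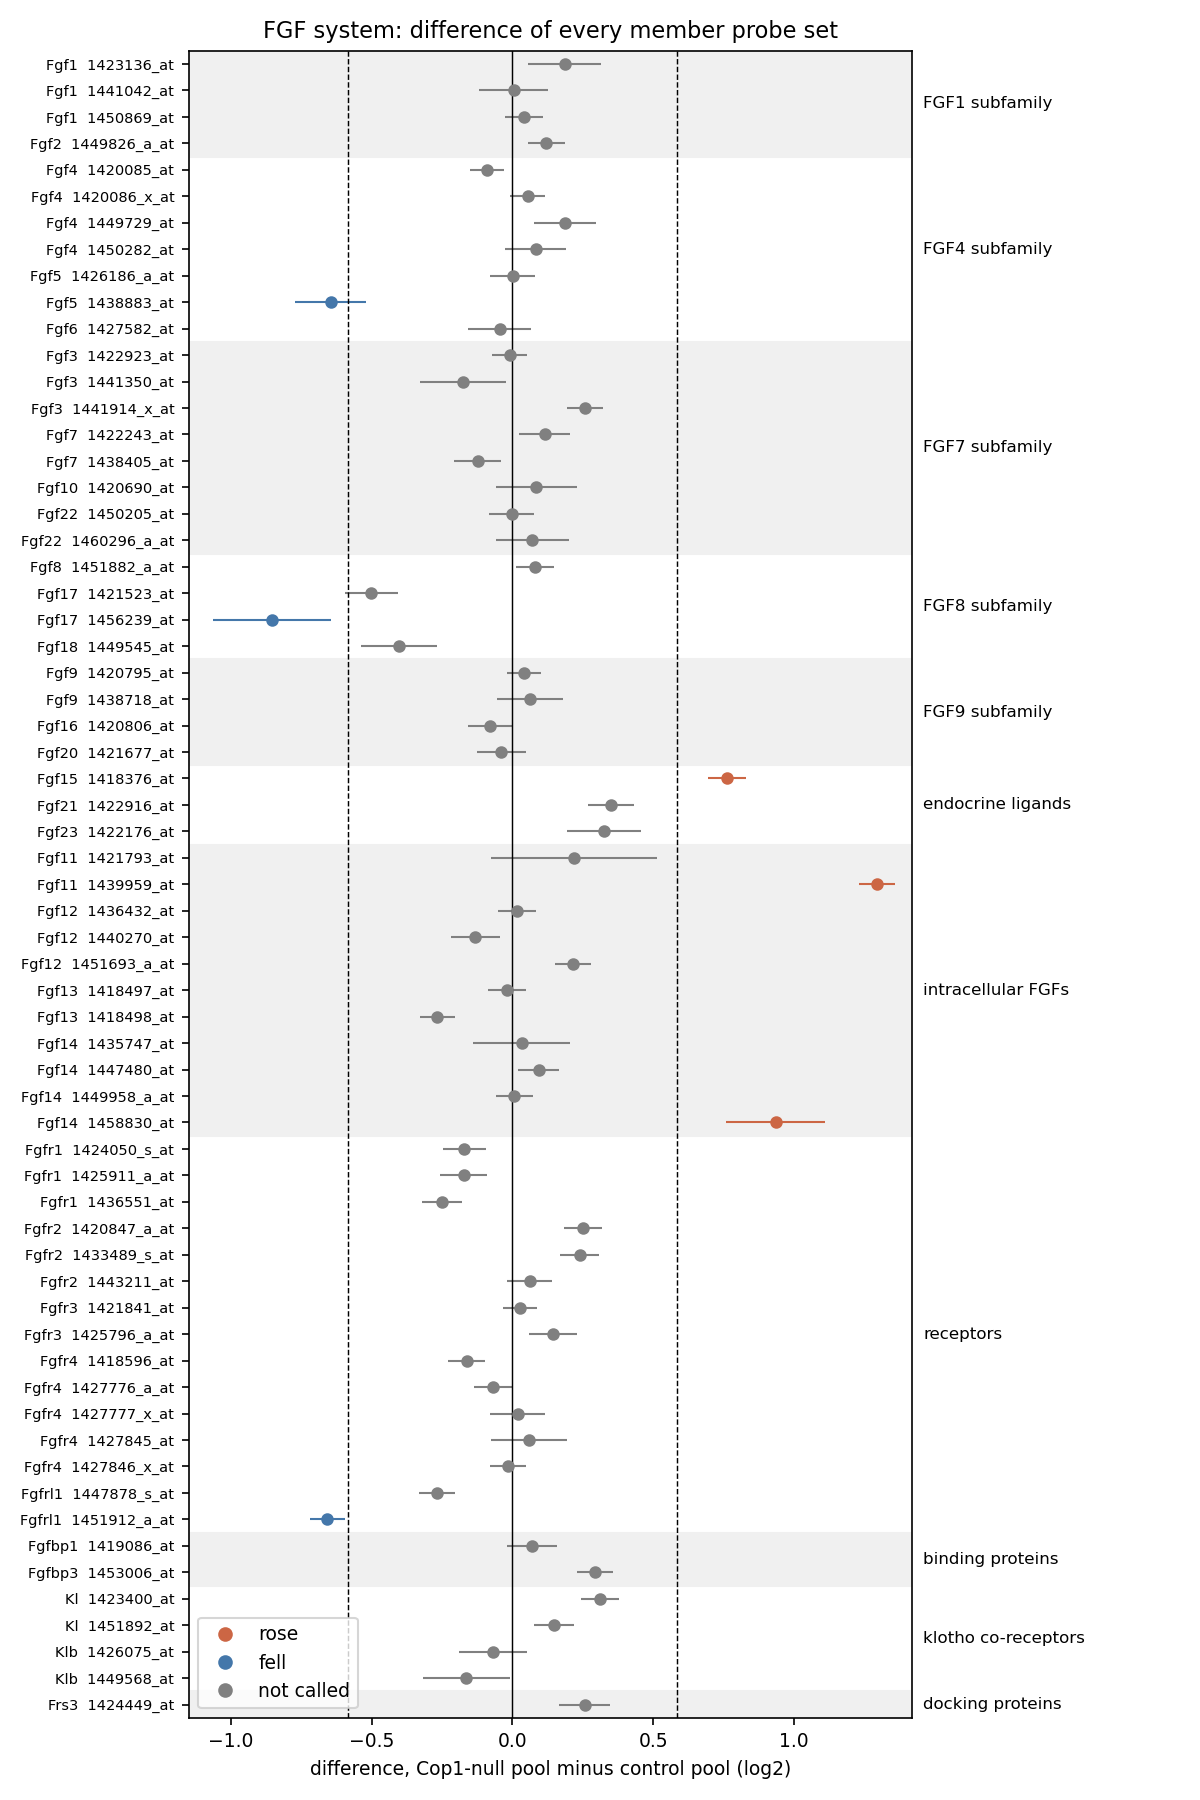
Difference between the pools (horizontal axis, log2 units, null minus control) for each of the 63 member probe sets, grouped by role on the right. Points are fitted differences, bars are standard errors from limma (2 portions per pool), and dashed lines mark the fold limit of 1.5. The 3 risers lie between 0.76 and 1.30, the 3 fallers between -0.86 and -0.65, and 52 of the 63 points lie within 0.3 of 0.

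The arrays themselves were closely alike. Cop1, whose product the null embryos lack, read 11.35 and 11.26 in the control portions against 9.67 and 9.77 in the null portions (log2 expression), and it fell by 1.58 (SE 0.08, adjusted p = 0.000728). No source used here says whether that probe set lies in the deleted region. Pearson's r, taken over probe sets and so not over independent samples, was 0.998 within either pool and 0.980 to 0.982 across the pools. Array medians lay between 6.03 and 6.09. A scaling to the poly-A spikes, control RNAs that do not come from the embryo, moved the median difference of all probe sets from 0.01 to -0.25 and lowered every member's difference by the same amount. That scaling was chosen after the data were seen. Among the 63 members the portions of 1 pool differed by a median of 0.08 (control) and 0.09 (null) log2 units. Their widest gap was 0.54 in the control pool, in Fgf17, and 0.88 in the null pool, in Fgf11.

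Many members read low. Of the 63 probe sets, 34 lay among the dimmest 40% of all tested probe sets, below a mean of 5.39 (log2 expression), and 29 lay above. No detection calls were used here, so a low value may hold little signal beyond background, and folds there tend to be understated. Under that limit 3 of 34 members were called (8.82%), against 5.04% of all probe sets under it. Above the limit 3 of 29 were called (10.3%), against 19.5% of all probe sets above it. The limit was set on the mean over all 4 arrays, so this split is not independent of the calls. The called Fgf11 probe set, with means of 5.02 in the control and 6.31 in the null pool, lay above the limit only through its null values.

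**Figure D2:**
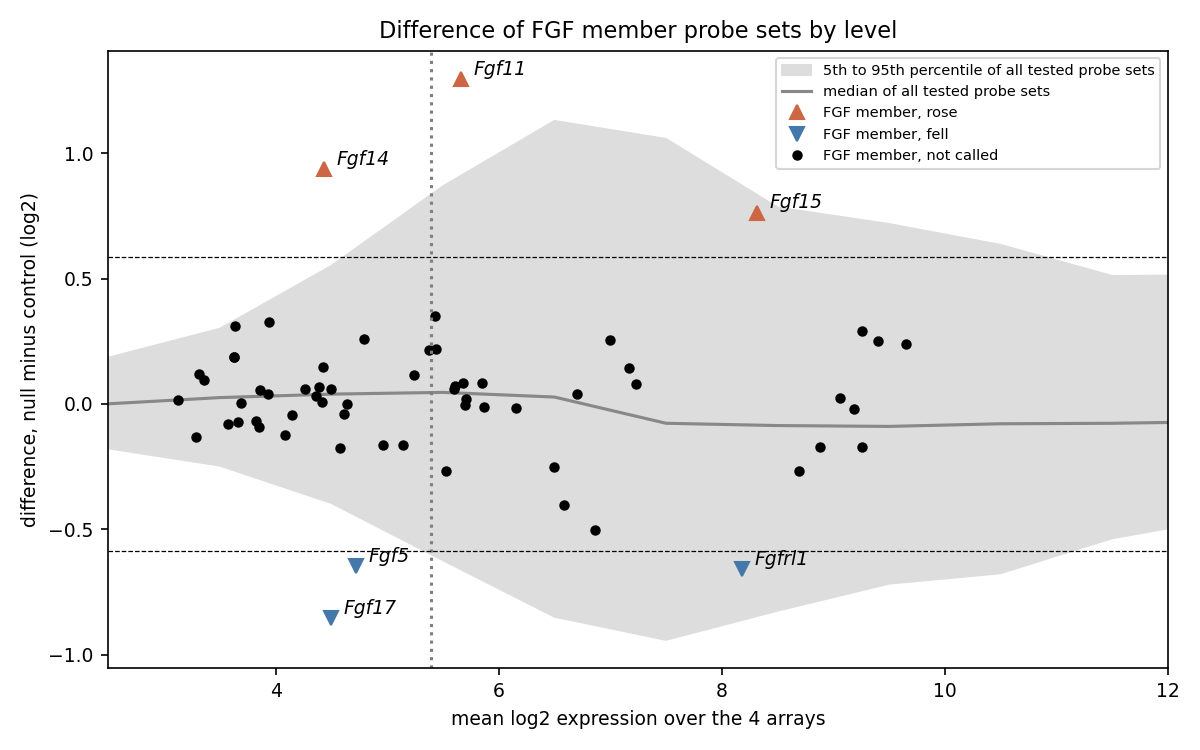
Difference between the pools (vertical axis, log2 units) against the mean log2 expression over the 4 arrays (horizontal axis) for the 63 member probe sets. The grey band spans the 5th to the 95th percentile of all 45037 tested probe sets in steps of 1 log2 unit, the dotted line marks the limit of the dimmest 40% (5.39), and dashed lines mark the fold limit. Of the 6 called members, 3 lie left of the dotted line and 3 right of it.

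Among the secreted ligands that act locally, 0 of 27 probe sets of 15 genes rose and 2 fell (7.41%). Of all probe sets 6.76% rose and 6.96% fell, so the share of falls was near that of the array as a whole. The FGF8 subfamily, whose 3 members Fgf8, Fgf17 and Fgf18 are made in the isthmus among other places, had 3 of its 4 probe sets lower in the null pool without overlap (32.7% of all probe sets were), and 1 of these was called. Fgf17 shapes the midbrain and cerebellum together with Fgf8. Its probe set 1456239_at read 4.65 and 5.19 in the control portions against 3.91 and 4.22 in the null portions. All 4 values lay under the dim limit. The null portions were the lower ones and the groups did not overlap. This probe set fell by 0.86 (SE 0.21, adjusted p = 0.0349), to 55.3% of the control level. Its other probe set, 1421523_at, read 7.19 and 7.03 against 6.69 and 6.53, a difference of -0.50 (SE 0.09, adjusted p = 0.0158) that missed the fold limit. The median of both, fitted as 1 value for the gene, was lower by 0.68 and was called (difference -0.68, SE 0.09, adjusted p = 0.00337). The call on 1456239_at alone was lost when control replicate 2, null replicate 1 or null replicate 2 was left out, with differences of -0.59, -0.70 and -1.01 and adjusted p-values of 0.1, 0.161 and 0.0914. Leaving out an array leaves its pool with 1 portion, whose spread is then assumed to be like that of the other pool. In whole-embryo RNA, fewer cells that make a transcript and less transcript per cell cannot be told apart.

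Fgf18, which acts in brain, skeleton and lung, read 6.75 and 6.82 in the control portions against 6.20 and 6.56 in the null portions. The groups did not overlap, but the null portions differed more from each other than the control portions did. The difference of -0.40 (SE 0.13) did not pass the test (adjusted p = 0.0818). Without null replicate 2 it was -0.59 (adjusted p = 0.034) and was called. Fgf8 itself, the organising signal of the isthmus, limb ridge and tail bud, read 7.15 and 7.24 in the control portions and 7.29 and 7.26 in the null portions. The Fgf8 difference was 0.08 (SE 0.07, adjusted p = 0.429), and it was -0.18 with arrays centred on the poly-A spikes. Of 5 measured isthmus markers 1 rose and 0 fell, while 11.6% of all genes were called in this comparison when each was represented by its brightest probe set. The riser was Wnt1 (0.97, adjusted p = 0.00443). The mean log2 level of the isthmus list was 6.04 to 6.16 in the control portions and 6.10 to 6.25 in the null portions, and En1 had a difference of -0.76 (adjusted p = 0.0513). Their part in the Fgf17 result was not tested.

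In the FGF4 subfamily a single probe set fell. Fgf5, known as the signal that ends hair growth and as a marker of the early epiblast, read 5.13 and 4.97 in the control portions against 4.55 and 4.25 in the null portions at 1438883_at. All 4 values lay under the dim limit, and the groups did not overlap. This probe set fell by 0.65 (SE 0.13, adjusted p = 0.0185). The call was lost when control replicate 1, control replicate 2 or null replicate 2 was left out, with differences of -0.57, -0.73 and -0.49 and adjusted p-values of 0.102, 0.0685 and 0.0662. The other Fgf5 probe set, 1426186_a_at, had a difference of 0.00 (SE 0.08, adjusted p = 0.994), so the gene's probe sets disagreed. Fgf4, a signal of the limb ridge, had 4 probe sets with differences between -0.09 and 0.19, and none was called. Fgf6, a muscle FGF, differed by -0.04 (SE 0.11, adjusted p = 0.809). Of 6 myotome markers 3 fell and 0 rose, while 8.06% of all genes fell: Myog by 1.49, Myf5 by 0.72 and Myod1 by 0.66. The mean log2 level of the myotome list was 8.17 to 8.22 in the control portions and 7.67 to 7.70 in the null portions, and its part in the Fgf5 result was not tested.

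In the remaining local ligands 0 of 16 probe sets were called, against 13.7% of all probe sets. The FGF7 subfamily covers Fgf3, which induces the inner ear, Fgf7, a growth factor of epithelia, Fgf10, which starts limb and lung outgrowth, and Fgf22, which acts at synapses. Its 8 probe sets differed by -0.18 to 0.26. Fgf10 read 5.73 and 5.55 against 5.90 and 5.54, with overlapping groups and a difference of 0.09 (SE 0.14, adjusted p = 0.709). The highest value in that subfamily belonged to the Fgf3 probe set 1441914_x_at (0.26, SE 0.06, adjusted p = 0.0343). It passed the p threshold alone, and a suffix of _x_at marks probes that may bind other transcripts. The brightest Fgf3 probe set read 5.89 and 5.86 against 5.88 and 5.84, a difference of -0.01 (SE 0.06, adjusted p = 0.929). The FGF9 subfamily, with Fgf9, a signal from epithelium to mesenchyme, the heart factor Fgf16 and the inner ear factor Fgf20, differed by -0.08 to 0.06 over 4 probe sets. Fgf9 read 6.68 and 6.67 against 6.71 and 6.72 at its brighter probe set. Fgf1 and Fgf2, which lack a classical signal peptide, read low on all arrays, Fgf2 at 3.28 and 3.22 against 3.34 and 3.40, and differed by 0.00 to 0.19 over 4 probe sets.

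The 3 hormone-like ligands all read higher in the null pool, and 1 of them rose, while 6.76% of all probe sets rose. Fgf15, the mouse counterpart of human FGF19, is made in the embryonic neural tube and, after birth, in the gut, where it restrains bile acid synthesis. It read 7.92 and 7.95 in the control portions against 8.75 and 8.65 in the null portions. Both null portions were well above both control portions. Fgf15 rose by 0.76 (SE 0.07, adjusted p = 0.00225), which is 1.70-fold, and the call held whichever array was left out. With arrays centred on the poly-A spikes the Fgf15 difference was 0.51 and missed the fold limit. Fgf21, a metabolic hormone that the integrated stress response switches on in liver, read 5.24 and 5.26 against 5.69 and 5.52. Its difference of 0.35 (SE 0.08, adjusted p = 0.0306) passed the p threshold and missed the fold limit. Fgf23, the phosphate hormone of bone, read 3.82 and 3.74 against 3.92 and 4.28, a difference of 0.33 (SE 0.13, adjusted p = 0.13) at a level under the dim limit. All 8 listed genes of the integrated stress response rose in these arrays, while 3.58% of all genes rose. Their mean log2 level was 8.06 in both control portions and 9.59 to 9.62 in the null portions. That list was chosen with earlier results of these data known, so its count is no independent result. The part of these genes in the Fgf15 and Fgf21 values was not tested.

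Fgf15 has 2 relatives as its neighbours. In the RefSeq annotation of GRCm38.p6, Fgf3, Fgf4 and Fgf15 follow each other on chromosome 7 with 0 protein-coding genes between them. Fgf15 rose, whereas the brightest probe sets of Fgf3 and Fgf4 differed by -0.01 (SE 0.06) and 0.08 (SE 0.11). Fgf6 and Fgf23 are likewise adjacent, on chromosome 6, and neither was called.

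The intracellular FGFs, Fgf11 to Fgf14, bind voltage-gated sodium channels and do not act through the receptors in the usual way. Of their 11 probe sets 2 rose and 0 fell (18.2% called), with a median of 0.03 log2 units. Of all probe sets 13.7% were called and 6.76% rose. Only 4 of the 11 lay above the dim limit. Fgf11 gave the widest difference of all members. Its probe set 1439959_at read 4.99 and 5.04 in the control portions against 6.29 and 6.33 in the null portions. The portions of a pool lay within 0.06 of each other, and the null pool was clearly higher. The control values lay under the dim limit and the null values above it, so the fold starts from a low reading. Fgf11 rose by 1.30 at this probe set (SE 0.06, adjusted p = 0.00077), 2.46-fold, and it was the only member past a fold of 2. Its other probe set, 1421793_at, read 5.23 and 5.42 against 5.11 and 5.98. Here the null portions disagreed by 0.88 and the groups overlapped (0.22, SE 0.29, adjusted p = 0.63). Without null replicate 1 this probe set was called at 0.66 (adjusted p = 0.0461), and without null replicate 2 it read -0.22 (adjusted p = 0.294). All 8 listed genes of the low oxygen response rose, with a median difference of 2.22, while 3.58% of all genes rose. Their mean log2 level was 9.21 to 9.29 in the control portions and 11.48 to 11.54 in the null portions. This list, too, was chosen with earlier results of these data known. The part of these genes in the Fgf11 result was not tested.

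Fgf14, a sodium channel partner of neurons, had 4 probe sets, all under the dim limit. At 1458830_at it read 3.85 and 4.08 in the control portions against 5.13 and 4.67 in the null portions. This probe set rose by 0.94 (SE 0.18, adjusted p = 0.0163). The other 3 differed by 0.01, 0.03 and 0.09 and were not called. The call was lost when either control replicate was left out, with differences of 0.82 and 1.05 and adjusted p-values of 0.0944 and 0.0636, and the median over the gene's 4 probe sets was not called (0.30, adjusted p = 0.065). Fgf13, a neuronal member on the X chromosome, read 9.18 and 9.22 against 9.23 and 9.14 at its brighter probe set, which differed by -0.02. Its dimmer probe set passed the p threshold alone (-0.27, SE 0.06, adjusted p = 0.0307). Fgf12, found in heart and brain, differed by -0.13 to 0.22 over 3 probe sets, none called.

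**Figure D3:**
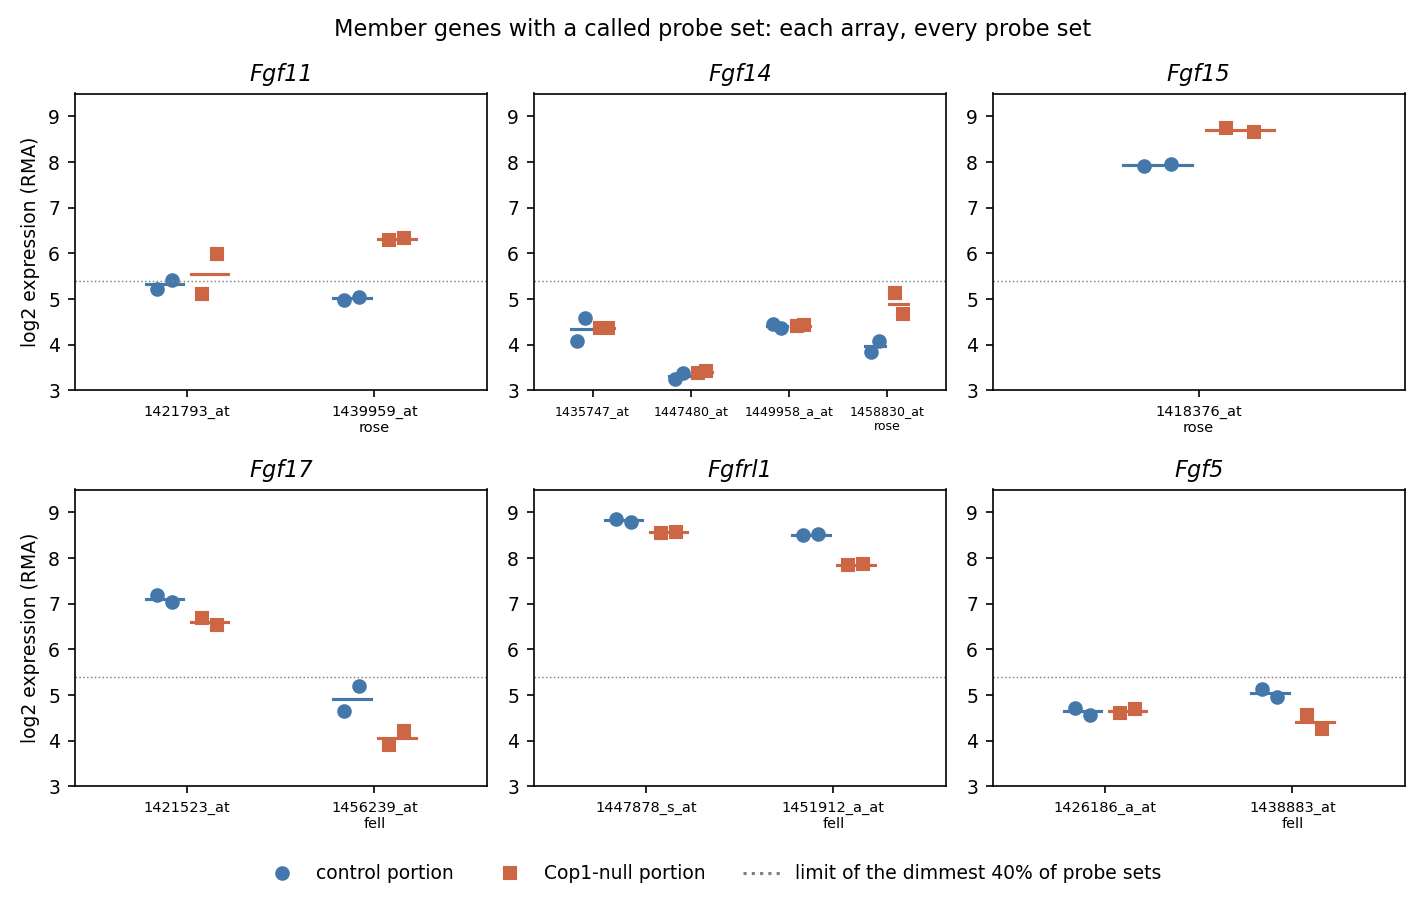
Log2 expression on each array (vertical axis) for every probe set of the 6 genes with a called probe set. Circles are control portions, squares are Cop1-null portions, short lines are means of 2 portions, the dotted line is the limit of the dimmest 40% of probe sets (5.39), and the words under an identifier give its call. For Fgf11, Fgf14, Fgf17, Fgf5 and Fgfrl1 1 probe set was called while the others were not.

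Of the receptor genes, Fgfr1 to Fgfr4 had no called probe set among 13, while 13.7% of all probe sets were called. Fgfr1, the main receptor of mesoderm, read 9.37 and 9.32 against 9.24 and 9.10 at its brightest probe set. Its 3 probe sets, which measure the same gene, were lower in the null portions without overlap (32.7% of all probe sets were), by 0.17 to 0.25 log2 units. None passed the test, with adjusted p-values between 0.0522 and 0.187. Fgfr2, a receptor of epithelia and limb buds, went the other way. It read 9.53 and 9.53 against 9.72 and 9.83 at its brightest probe set (0.24, SE 0.07, adjusted p = 0.058), and its next probe set passed the p threshold alone (0.25, SE 0.07, adjusted p = 0.0462). The sign for Fgfr2 turned when arrays were centred on the poly-A spikes, to -0.02 and -0.01. Fgfr3, which restrains bone growth, read 9.04 and 9.05 against 9.07 and 9.07, and its 2 probe sets differed by 0.03 and 0.14. The 5 probe sets of Fgfr4, a receptor of muscle and liver, differed by -0.16 to 0.06.

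Fgfrl1 encodes a receptor-like protein that binds FGFs and lacks the kinase domain. It read 8.50 and 8.52 in the control portions against 7.84 and 7.86 in the null portions at 1451912_a_at. Portions agreed within 0.03 and the pools were well apart. Fgfrl1 fell by 0.66 at this probe set (SE 0.06, adjusted p = 0.0024), to 63.4% of the control level, and the call held whichever array was left out. The other probe set, 1447878_s_at, read 8.86 and 8.79 against 8.54 and 8.57. It was also lower, without overlap, by a smaller amount (-0.27, SE 0.06, adjusted p = 0.0341) that missed the fold limit. As this is the brighter of the 2, Fgfrl1 did not count as called when each gene was represented by its brightest probe set.

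Fgf11 and Fgfrl1 were the riser and the faller that kept their calls with any array left out and whose promoters are in the RefSeq table used. The 250 bases before an annotated start are shown for both, 5′ to 3′ on the strand of the gene, from RefSeq, build GRCm38.p6. They lie at chr11:69802281-69802530 on the minus strand for Fgf11 and at chr5:108693979-108694228 on the plus strand for Fgfrl1. Capitals mark matches to the motifs named after them.
Fgf11: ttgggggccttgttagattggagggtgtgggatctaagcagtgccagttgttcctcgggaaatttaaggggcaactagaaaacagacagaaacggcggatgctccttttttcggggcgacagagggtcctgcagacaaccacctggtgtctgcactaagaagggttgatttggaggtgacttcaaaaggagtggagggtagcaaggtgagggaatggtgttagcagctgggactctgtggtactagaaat
Fgfrl1: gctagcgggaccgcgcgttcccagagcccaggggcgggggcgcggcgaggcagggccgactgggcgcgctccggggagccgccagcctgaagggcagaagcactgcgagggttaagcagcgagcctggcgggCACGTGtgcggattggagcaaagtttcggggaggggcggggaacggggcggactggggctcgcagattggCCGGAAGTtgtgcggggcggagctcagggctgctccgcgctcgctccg
The windows were searched on both strands for the core of the low oxygen response element (ACGTG or GCGTG), an ETS site (CCGGAAGT), an AP-1 site (TGANTCA) and the ATF4 element called CARE (TGATGNAAN). Fgfrl1 held CACGTG, which reads as ACGTG on either strand, between 118 and 113 bases before the start, and the ETS letters between 48 and 41 bases before it. The Fgf11 window held 0 matches to these letters, and so did those of Fgf5 and Fgf14. Over 32851 promoter windows of the same length, the low oxygen core was found in 38.6%, the ETS letters in 2.88%, AP-1 in 6.75% and CARE in 3.44%. A match is a string of letters and not a measured binding site.

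The FGF binding proteins, klotho co-receptors and the docking protein Frs3 had 0 called probe sets among 7, against 13.7% of all probe sets. Fgfbp3, a secreted protein that releases FGFs from the matrix, read 9.12 and 9.11 against 9.38 and 9.44. Its portions agreed closely, and the difference of 0.29 (SE 0.06, adjusted p = 0.0248) passed the p threshold alone. Fgfbp1 differed by 0.07 (SE 0.09). Kl, which encodes klotho, the co-receptor of FGF23, read between 3.45 and 4.55 on all arrays, and its probe set 1423400_at differed by 0.31 (SE 0.07, adjusted p = 0.0266). Klb, the co-receptor of FGF15 and FGF21, differed by -0.16 and -0.07 over 2 probe sets with overlapping groups. Frs3, a docking protein beneath the receptors, read 6.94 and 6.80 against 7.05 and 7.21 (0.26, SE 0.09, adjusted p = 0.0938).

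The count of changed genes depended on which probe set stood for a gene. With the brightest probe set, 3 of 32 member genes rose (Fgf11, Fgf14, Fgf15) and 1 fell (Fgf5), which is 12.5% against 11.6% of all 18193 genes (3.58% rose, 8.06% fell). Brightness was the mean over all 4 arrays, so a rise in the null pool can itself make a probe set the brightest. In the control pool the called probe sets of Fgf11 (mean 5.02) and Fgf14 (3.96) were dimmer than another of the same gene (5.32 and 4.41). Those others were not called, so these 2 rises depended on that choice. Counting any called probe set gave 6 of 32 genes (18.8%), against 19.8% of all genes. With the median over a gene's probe sets, Fgf11 (0.76, adjusted p = 0.0167) and Fgf15 (0.76, adjusted p = 0.00118) rose and Fgf17 fell. Of the 6 genes with a called probe set, 5 had several, and in those 5 the remaining probe sets were not called. Besides the called ones, 8 member probe sets had an adjusted p under 0.05, with differences from -0.50 to 0.35. With the replicate number as a block, 7 of these 8 no longer passed, all but Fgf17 1421523_at. In all, 14 of 63 members (22.2%) passed the p threshold, against 32.7% of all probe sets.

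Genes that carry the signal on from the receptors were counted in the same way. Of 26 measured signal transducers 6 fell and 0 rose (23.1%, against 11.6% of all genes), with a median difference of -0.09 against -0.02 over all genes. None of the 26 lay under the dim limit, and 19.5% of all probe sets above that limit were called. Pik3r2, a regulatory subunit of phosphoinositide 3-kinase, fell by 1.24 (SE 0.08), the RAS activator Sos1 by 1.17 (SE 0.09), the kinase Akt1 by 0.89 (SE 0.07) and Pik3r1 by 0.72 (SE 0.10). Their adjusted p-values lay between 0.00101 and 0.00751. For Sos1 and Pik3r1 none of the other probe sets was called, and with gene medians the list held 2 falls and 2 rises. The remaining fallers were Pik3ca and Map2k2. Pik3ca fell by 0.69 (SE 0.06, adjusted p = 0.00213), and 4 of its 5 other probe sets fell as well. Map2k1 and Map2k2 both encode kinases that activate ERK, and they differed in opposite directions. Map2k2 fell by 0.66 (SE 0.08, adjusted p = 0.00437), though its other probe set was not called. Map2k1 was higher in the null pool, just under the fold limit (0.58, adjusted p = 0.00376). The adaptor Grb2 differed by 0.00 (adjusted p = 0.979).

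Of 16 measured ETV factors and feedback inhibitors 4 fell and 0 rose (25%, against 11.6% of all genes), with a median of -0.18. Only 1 of the 16 lay under the dim limit, and 19.5% of all probe sets above that limit were called. Etv5 fell by 1.73, Dusp4, a phosphatase of ERK, by 0.90, Etv4 by 0.82 and Spred3 by 0.62. The 2 other probe sets of Etv5 fell as well, whereas the other probe set of Etv4 was not called. Of the Sprouty genes and their relatives that were not called, Spry4 (-0.55, adjusted p = 0.0166) and Spred2 (-0.34, adjusted p = 0.0161) were lower and passed the p threshold alone. Spry1 lay on the other side of 0, just under the fold limit (0.58, adjusted p = 0.00338). Dusp6, another ERK phosphatase, differed by -0.21 (adjusted p = 0.0731) and Spry2 by -0.16 (adjusted p = 0.124), and neither passed the test. Of 34 measured heparan sulphate proteins and their enzymes 1 rose and 1 fell (5.88%, against 11.6% of all genes), with a median of 0.05. The riser was the cell surface proteoglycan gene Sdc4 (0.76, adjusted p = 0.00197) and the faller Gpc1 (-0.70, adjusted p = 0.00216), which encodes a lipid-anchored proteoglycan.

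**Figure D4:**
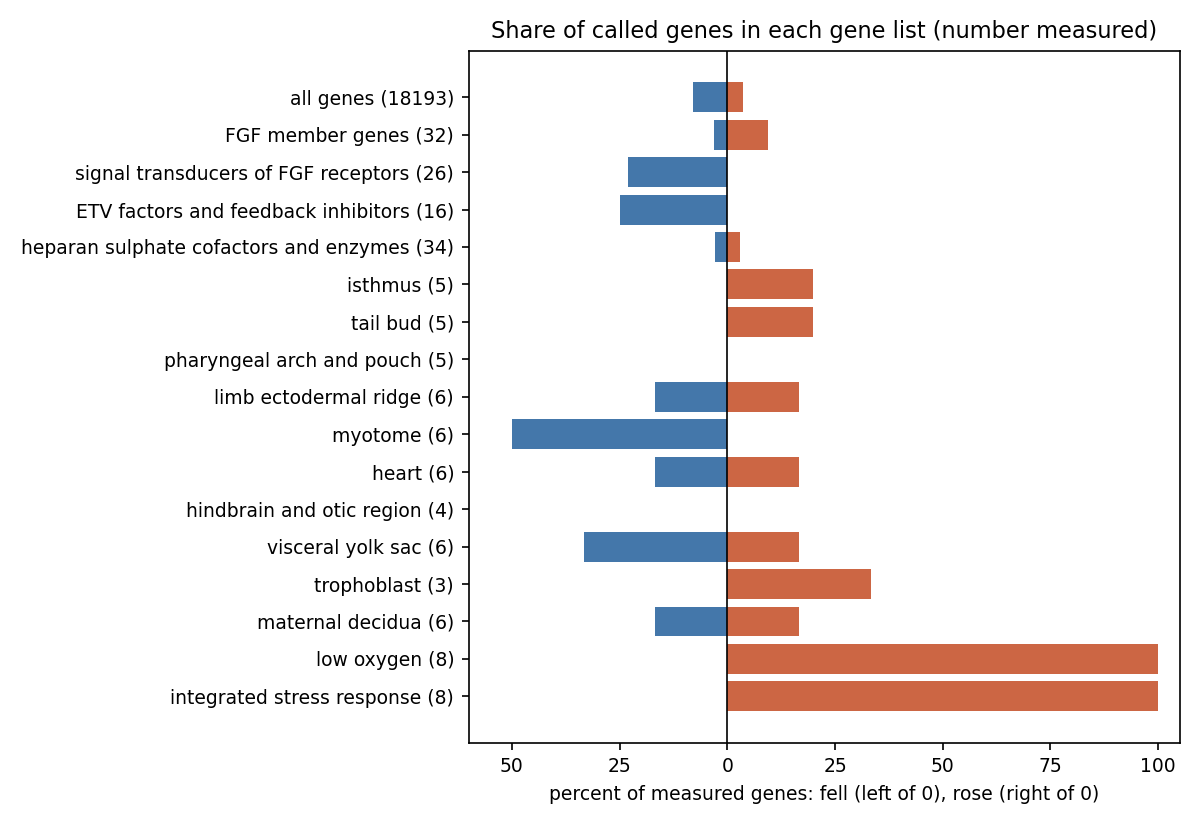
Share of measured genes that rose (right of 0) or fell (left of 0), in percent, for all genes, the FGF member genes and each gene list, with the number measured in brackets and each gene represented by its brightest probe set. The FGF member genes (12.5% called) lie near all genes (11.6%), the transducers and the ETV and feedback list have falls only, and all 8 genes of both stress lists rose.

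Markers of the other tissues that make FGFs were mixed, and the counts below stand beside 11.6% of all genes called. Of 5 tail bud markers 1 rose, Cyp26a1 (1.31), and their mean log2 level was 6.23 to 6.27 in the control portions and 6.58 to 6.60 in the null portions. Of 6 limb ridge markers Bmp4 rose (1.01) and Sp8 fell (-0.68), with levels of 6.94 to 7.04 and 6.77 to 6.86. Of 6 heart markers Nppa rose (1.49) and Myl2 fell (-0.80), with levels of 9.16 to 9.17 and 9.30 to 9.34. Of 5 pharyngeal and 4 hindbrain markers 0 were called, with levels of 7.24 to 7.31 against 7.21 to 7.27 and of 6.03 to 6.17 against 5.91 to 6.04. Among tissues that a dissection can carry along, Afp (-1.01) and Ttr (-1.53) fell and Cubn (1.45) rose of 6 yolk sac markers, whose levels were 7.67 to 7.76 and 7.51 to 7.53. Of 3 trophoblast markers Ascl2 rose (0.64), at levels of 5.15 to 5.20 and 5.31 to 5.51, and of 6 decidua markers Bmp2 rose (1.31) and Hand2 fell (-0.72), at 6.75 to 6.80 and 6.83 to 6.85. The defining decidua gene Prl8a2 read 3.56 to 3.65 and the trophoblast gene Tpbpa 3.37 to 3.60 on the 4 arrays. The part of these tissues in the FGF values was not tested.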

How the data were processed

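Total RNA of 1 Cop1-null and 1 control pool was measured as 2 portions each. The authors deposited 1 table of log2 expression values for the 4 arrays, and the submitters' processing notes name RMA and the package affy without versions. RMA forces 1 common intensity distribution on all arrays, so a change in total RNA per embryo cannot be seen. The values were used as deposited. Of 45101 probe sets, 64 controls were left out and 45037 tested. Names came from the platform's annotation table (34945 probe sets with 1 symbol, 932 with several, which were left unnamed, and 9160 not listed there).

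Differences were fitted with limma 3.58.1 in R 4.3.3 (lmFit and eBayes over the whole table, genotype as the only term, two-sided, Benjamini-Hochberg). On simulated data with the spread between portions, the fit called 50% of 50 probe sets changed 1.5-fold, 98% of those changed 2-fold and 100% at 3-fold or 4-fold, with 2 false calls among 45037 probe sets. A change of 1.5-fold equals the fold limit, so its share of 50% follows from that limit. With 50 changed probe sets per fold, far fewer changed than the 14734 that passed the p threshold in the real data. The false calls therefore do not carry over to the real comparison. The number of arrays limits the precision. The members, the gene lists and the rule for named genes (every member, up to 4 called genes of a pathway list, up to 3 of a marker list) were chosen with earlier results of these data known. Beyond that rule, all 6 called transducers were named. Alternatives were leaving out each array (the spread then comes from the other pool's portions alone, moderated over all probe sets), the replicate number as a block, scaling, a filter on dim probe sets, a variance trend, other thresholds and gene medians. Same-numbered portions deviated together with a correlation of 0.06 across probe sets, and the labels do not pair them.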

Additional observations from a re-analysis of the deposited data

How the results depend on the processing

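Every member call kept its direction wherever it was recomputed. With each array left out in turn, 2 to 4 member probe sets rose and 1 to 2 fell (3 and 3 with all arrays), 2 to 3 member genes rose and 0 to 1 fell, over all probe sets 2663 to 2936 rose and 2704 to 2992 fell, 5 to 6 transducers fell and 1 rose, 3 to 5 ETV and feedback genes fell and 0 to 1 rose, and 1 heparan sulphate gene rose and 1 fell. With adjusted p alone, 8 member probe sets rose and 6 fell, 5 member genes rose and 3 fell, 6801 of all probe sets rose and 7933 fell, 5 transducers rose and 11 fell, 3 ETV and feedback genes rose and 6 fell, and 6 heparan sulphate genes rose and 5 fell. At a fold of at least 2, 1 member probe set (Fgf11) rose and 0 fell, 1 member gene rose and 0 fell, 1393 of all probe sets rose and 749 fell, 2 transducers and 1 ETV gene fell, and 0 heparan sulphate genes rose or fell. Gene medians gave 2 rises and 2 falls among transducers, 0 and 3 among ETV and feedback genes, and 2 and 1 among heparan sulphate genes. Quantile normalization applied once more gave, in the same order, 2 rises and 6 falls, 1 and 5, and 2 and 1. Without the dimmest 40% of probe sets, 29 members were tested, 1 member probe set (Fgfrl1) and 0 member genes fell, and the other fallers were not among those tested. Centring on the poly-A spikes, chosen after seeing the data, moved the median difference of all probe sets from 0.01 to -0.25. It gave 1849 rises and 7168 falls over all probe sets, so 20.5% in place of 49.3% of calls were rises. Among members 5 probe sets and 3 genes fell, Fgf17 and Fgf18 probe sets being added and Fgf15 (0.51, adjusted p = 0.0473) lost, and 0 heparan sulphate genes rose and 4 fell. The spike medians were 7.23 and 7.49 in the control portions and 7.52 and 7.71 in the null portions, so portions of 1 pool differed about as much as the pools. With the replicate block, as with a variance trend, 3 member probe sets rose and 3 fell, and all 63 members kept their call. Leaving the fold limit aside, the adjusted p of 7 members moved above 0.05 and that of 0 below it with the block, and with the trend 2 moved above and 3 below. The cause of these changes was not tested.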
